A study of Mus musculus with 6 samples.

Results

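The regions described here are the 500 bp windows of the mouse genome, out of all windows listed with a methylation difference, whose nearest transcription start site belongs to a noncoding RNA. They were taken from the authors' deposited tables of 3 comparisons, joined by chromosome and start, and kept where the RefSeq identifier of the nearest transcript starts with NR_, at any distance. This gave 339 of 2135 listed windows (15.9%), nearest to 192 genes. The other 1796 windows lie nearest to a coding transcript. In RefSeq, 137 of the 192 genes are typed as long noncoding RNAs, 20 as microRNAs, 3 as small nucleolar RNAs and 25 as transcribed pseudogenes. A single gene each is typed as a pseudogene and as an antisense RNA. Another 5, named here because of that typing, are protein coding there: Asb7, Cd247, Hrh3, Nkx6-2 and 2900008C10Rik (now Bcor). For them the NR_ label can stand only for a noncoding variant of the transcript.

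DNA methylation was measured by reduced representation bisulfite sequencing (RRBS), which reads cytosines on fragments cut by MspI at CCGG and so samples CpG-rich DNA most densely. All 6 libraries came from GFP-positive cells sorted from the bone marrow of mice that had been irradiated and given transplants of C57BL6 bone marrow cells immortalised with HoxA9, a homeobox protein that keeps myeloid progenitors dividing. The IDH1wt group (2 libraries) carried pSF91-IDH1wt-IRES-EGFP, a retroviral vector with wild-type IDH1. The IDH1mut group (2 libraries) carried pSF91-IDH1mut-IRES-GFP with mutant IDH1. The labels do not name its amino acid change, while the name of the deposited table that compares it with IDH1wt gives R132C. The R-2HG group (2 libraries) carried the empty vector, and its host mice were given 1 mg of R-2HG daily over 4 weeks. Sorting took place 4 weeks after transplantation or treatment in each group. The R-2HG group differs from both other groups in vector as well as in dosing of the host with R-2HG. These differences cannot be told apart, and no group with the empty vector but without R-2HG is among the 6 libraries. All values come from transduced HoxA9 cells in a host, not from unmodified marrow.

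IDH1 makes alpha-ketoglutarate from isocitrate, and mutant forms make R-2HG from it instead. R-2HG competes with alpha-ketoglutarate at TET enzymes, which start the removal of DNA methylation. A microRNA is cut from a hairpin in a longer primary transcript and pairs through its seed with messenger RNAs, which lowers their output. Long noncoding RNAs are transcribed from promoters like those of coding genes, and methylation of a CpG-rich promoter is generally linked to silence of the transcript.

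A gain means more methylation in the group named first, and a loss means less. The tables hold only windows past a threshold, with differences of at least 25 percentage points and q-values up to 0.00995 as the authors deposited them. Depth, coverage per window and group means are unknown, so each value is the authors' difference between groups without an error of its own. The direction of all 3 tables together is fixed only up to a reversal, and read the other way round all gains become losses. Any pair of comparisons shares the libraries of 1 group. RNA was not measured, so a gene name says only which start site lies nearest.

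The microRNAs whose windows carry the results below are shown first because the seed decides which messenger RNAs a microRNA can pair with. Seeds (bases 2 to 8) are in capitals, and sequences are RefSeq's mature forms, 5′ to 3′.
miR-671-5p: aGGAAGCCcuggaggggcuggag
miR-671-3p: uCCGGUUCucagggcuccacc
miR-5103: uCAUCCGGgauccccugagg
miR-128-3p: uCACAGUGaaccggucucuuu
miR-196a-5p: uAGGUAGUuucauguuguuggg
miR-152-3p: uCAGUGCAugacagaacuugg
miR-138-5p: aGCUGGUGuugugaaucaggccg
miR-5126: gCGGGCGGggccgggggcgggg
miR-205-5p: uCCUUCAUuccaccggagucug
let-7c-5p: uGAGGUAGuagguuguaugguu

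No 2 of the 17 listed microRNA genes with a RefSeq hairpin share a seed. Outside them, miR-196a-5p has its seed in common with miR-196b-5p, and miR-152-3p with miR-148a-3p and miR-148b-3p. The let-7c-5p seed stands in 10 other mature mouse sequences, most of them of the let-7 family. The MspI site CCGG reads the same on both strands. Of the printed sequences it lies in miR-671-3p, miR-5103, miR-128-3p, miR-205-5p and miR-5126, and of those not printed in miR-760-5p. It occurs in 8 of the 17 hairpins (47.1%), against 129 of all 1005 mouse hairpins in RefSeq (12.8%). Of the 7 hairpins with a window in the interval from -2000 to 500 bp, 6 hold it. RRBS fragments start at CCGG, and whether this accounts for the difference between these shares was not tested. For 7 of the 20 microRNA genes the nearest listed window lay beyond 50 kb, so those windows do not cover the hairpin.

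Windows nearest to noncoding RNAs were mostly gains against IDH1wt. For IDH1mut minus IDH1wt, 176 of 250 noncoding windows in the authors' deposited table were gains (70.4%), beside 69.3% of all listed windows and 69.1% of those nearest to coding transcripts. For R-2HG minus IDH1wt, 82 of 111 were gains in the authors' deposited table (73.9%), beside 68% of all listed windows and 67.0% of coding ones. These 2 shares are near the background of their tables. For R-2HG minus IDH1mut, 41 of 87 were gains in the authors' deposited table (47.1%), beside 35.5% of all listed windows and 33.5% of coding ones. Whether noncoding windows differ from coding ones in direction was not tested, since all windows rest on the same libraries. Counted as groups of windows within 1000 bp, 108 of 155, 49 of 70 and 24 of 51 were gains in the authors' deposited tables, in the same order of comparisons. These are 69.7%, 70% and 47.1%, beside 67.1%, 65.8% and 36.4% of the groups of all listed windows.

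The sizes of the differences lay close to the threshold in each table. Noncoding gains of IDH1mut minus IDH1wt were 31.0 percentage points at the median, with quartiles of 26.8 and 37.4, and losses were -29.4, in the authors' deposited table. Coding gains and losses had medians of 30.6 and -28.9 there. The noncoding medians were 29.7 and -29.6 for R-2HG minus IDH1wt and 29.7 and -29.5 for R-2HG minus IDH1mut in the authors' deposited tables. Differences under 26 points made up 34 of 250, 15 of 111 and 8 of 87 noncoding windows. The largest noncoding q-values were 0.0080, 0.0064 and 3.98e-05 in the authors' deposited tables, in the same order. At the other end, the largest noncoding gain was 62.6 points and the largest loss -56.0, both for IDH1mut minus IDH1wt in the authors' deposited table.

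**Figure D1:**
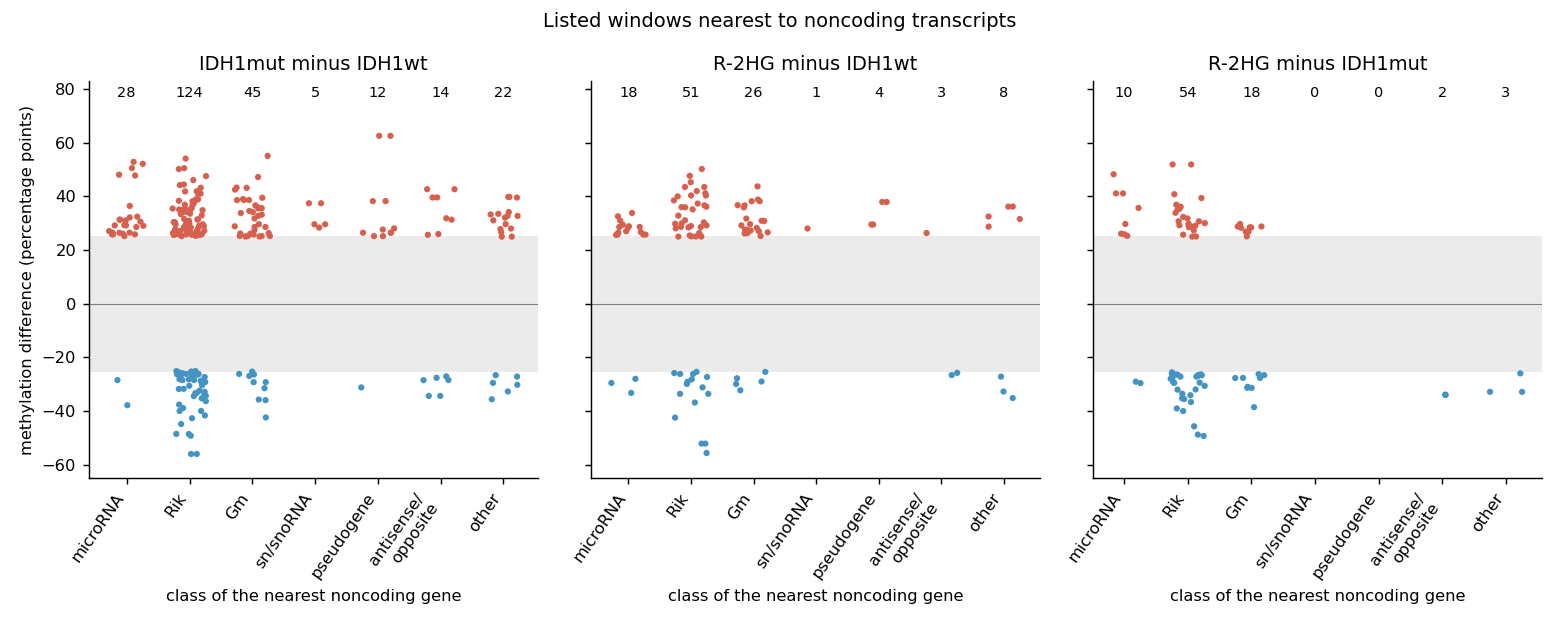
Methylation difference (vertical axis, percentage points) of each listed noncoding window (1 point per window), by class of the nearest gene (horizontal axis), in a panel for each comparison. Red points are gains, blue points losses, the grey band holds differences too small to be listed, and the number above each class is its count of windows. MicroRNA windows of IDH1mut minus IDH1wt are gains in 26 of 28 cases, while the 124 Rik windows spread over both directions.

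By class, microRNA windows held the largest share of gains among the 3 classes with most windows. For IDH1mut minus IDH1wt, 26 of 28 microRNA windows were gains in the authors' deposited table, against 75 of 124 windows nearest to Rik transcripts and 35 of 45 nearest to Gm transcripts. Rik and Gm are provisional names given to transcripts of mostly unknown function. For R-2HG minus IDH1wt the gains were 15 of 18 microRNA, 35 of 51 Rik and 21 of 26 Gm windows in the authors' deposited table. For R-2HG minus IDH1mut they were 8 of 10, 24 of 54 and 9 of 18. The microRNA counts are less uneven by gene, since 7 of the 28 windows belong to Mir671 and 5 to Mir684-1. By gene, 12 of 14, 9 of 11 and 5 of 7 microRNA genes had gains alone in the authors' deposited tables. The same counts over all noncoding genes were 99 of 144, 48 of 69 and 24 of 50. No test of the differences between classes was made.

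Mir671 had the most windows near its start of any listed noncoding gene, and all of them were gains. RefSeq places it inside Chpf2, a gene for a chondroitin sulfate enzyme, so the hairpin itself lies in a coding gene. Its 7 windows cover chromosome 5 from 24096501 to 24098500 (mm9), at distances from -932 to 71 bp of the hairpin's start. For IDH1mut minus IDH1wt the authors' deposited table gave 29.3, 36.4, 47.8, 52.1, 48.1, 50.6 and 52.9 percentage points, in the order of the chromosome. The 2 windows farthest upstream were the lowest and the 5 around the hairpin were all at 47.8 or more. For R-2HG minus IDH1wt the same 5 windows had 25.7, 28.6, 30.9, 32.6 and 33.8 points in the authors' deposited table. Each of these was lower than the IDH1mut value of its window, and no Mir671 window was listed for R-2HG minus IDH1mut. Neighbouring windows overlap by 250 bp and share CpGs, so these values are not independent.

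Mir5103, between Dst and Ccdc115, ran the opposite way in IDH1mut. Its window at chromosome 1, 34490001 to 34490500 (mm9), over the hairpin start, had -37.9 points for IDH1mut minus IDH1wt and 48.2 for R-2HG minus IDH1mut in the authors' deposited tables. Subtraction gives 10.4 points for R-2HG minus IDH1wt there, under the listing threshold. The window that starts 250 bp before it had 25.3 points for R-2HG minus IDH1mut, and the one before it 25.7 points for R-2HG minus IDH1wt, as listed in the authors' deposited tables. IDH1mut was the low group at the first of these windows, and at the other pair R-2HG lay above the group it was set against.

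Several microRNAs with a known role had 1 or 2 windows close to the hairpin. Mir128-2, inside the neuronal gene Arpp21, had 25.8 points for IDH1mut minus IDH1wt and -29.6 for R-2HG minus IDH1mut at -37 bp, as listed in the authors' deposited tables. Mir152, inside Copz2 and often methylated in tumours, had 32.4 points for IDH1mut minus IDH1wt at 46 bp and no other listed window. Mir196a-1, which lies between Hoxb13 and Hoxb9 and targets Hox messenger RNAs, had 25.2 and 27.0 points for IDH1mut and R-2HG against IDH1wt at -1228 bp, as listed in the authors' deposited tables. A second Mir196a-1 window at -478 bp was listed only for R-2HG minus IDH1mut, with 26.1 points. The windows of Mir152 and Mir196a-1 were all gains, and those of Mir196a-1 lay close to the threshold. Mir5126, inside Dner, had a loss of -29.6 points for R-2HG minus IDH1wt at -664 bp, as listed in the authors' deposited table. Mir688 gained 28.3 and 28.6 points in the same comparison at -1705 and -1955 bp.

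Mir684-1 is a case of copies. Its 5 windows lie on chromosomes 2, 5 and 16, each listed in 9 identical rows, and gained 26.4 to 31.3 points for IDH1mut minus IDH1wt in the authors' deposited table. The transcript matches several places in the genome, so which copy a row stands for is uncertain. Each window was counted once here.

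Most of the remaining microRNA windows lie far from the hairpin. For 7 of the 20 microRNA genes the nearest window was beyond 50 kb. Mir138-1 had -28.5 points for IDH1mut minus IDH1wt and -33.3 for R-2HG minus IDH1wt in 1 window at -50994 bp, and -28.0 for R-2HG in the next, in the authors' deposited tables. It is the 1 microRNA gene with losses in both comparisons against IDH1wt. Mir205, an epithelial microRNA, had equal gains in 2 overlapping windows, 29.2 points for IDH1mut and 25.8 for R-2HG against IDH1wt, at -124778 and -125028 bp, as listed in the authors' deposited tables. Mirlet7c-2, of the let-7 family that restrains growth genes, had 28.6 points for IDH1mut minus IDH1wt and -29.1 for R-2HG minus IDH1mut at -60533 bp. Mir760 gained 30.6 points in IDH1mut against IDH1wt at 872 bp, and R-2HG gained 26.5 against IDH1wt and 25.8 against IDH1mut at -28631 bp, in the authors' deposited tables. Mir465, on the X chromosome, had 41.1 points in 2 windows for R-2HG minus IDH1mut, at -386202 and -386452 bp.

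Of the other microRNA genes, Mir5127 had 26.7 points for R-2HG minus IDH1wt and 35.7 and 29.7 for R-2HG minus IDH1mut, 64070 and 64320 bp from its start, in the authors' deposited tables. Mir763, in Hmga2, gained 31.0 and 32.2 points in IDH1mut against IDH1wt. Mir1956, Mir3063 and Mir3066 gained 26.5, 25.8 and 26.05 points in that comparison in the authors' deposited table. Mir1907 and Mir1930 gained 28.8 and 29.4 points in R-2HG against IDH1wt. RefSeq places 11 of the 20 microRNA genes within a coding gene.

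**Figure D2:**
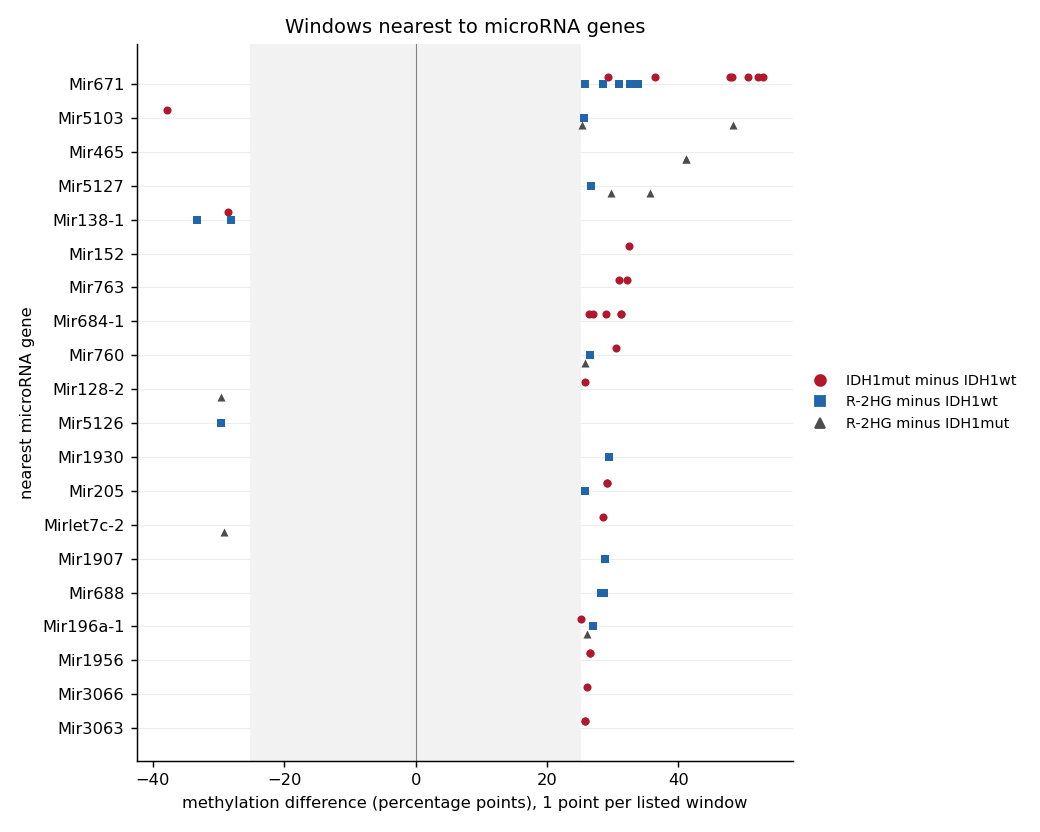
Methylation difference (horizontal axis, percentage points) of each listed window of the 20 microRNA genes (vertical axis), ordered by largest difference. Circles, squares and triangles are the 3 comparisons, and the grey band is the range below the listing threshold. Mir671 stands at the top with 7 windows up to 52.9 points, and losses against IDH1wt appear only for Mir5103, Mir138-1 and Mir5126.

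Promoter windows, from -2000 to 500 bp around the start site, made up 69 of the 339 noncoding windows (20.4%) and belonged to 35 genes. For coding windows the share was 17.0%. Among microRNAs 22 of 42 windows were of this kind (52.4%), against 11.3% of Rik and 18.8% of Gm windows. A microRNA record in RefSeq starts at the hairpin, so these distances are counted from the hairpin. Where the primary transcripts start was not examined. In the authors' deposited tables, noncoding promoter windows had 40 gains and 12 losses for IDH1mut minus IDH1wt, 18 and 3 for R-2HG minus IDH1wt, and 8 and 10 for R-2HG minus IDH1mut. The coding counts were 161 and 57, 50 and 29, and 26 and 71. Without the microRNAs the noncoding counts come to small numbers of windows per class. For IDH1mut minus IDH1wt, Rik promoter windows had 5 gains and 6 losses, and Gm promoter windows had 10 gains and no loss. Some of these windows belong to the same gene, such as 3 losses at 4930511A02Rik and 3 gains at Gm5069.

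The promoters below belong to 4 long noncoding RNA genes with a start-site window listed for R-2HG minus IDH1mut, and to Hoxa11os of a Hox cluster. They are shown for their content of CpGs and MspI sites. They are RefSeq sequences of GRCm38.p6, from 250 bases before to 50 bases after the start, on the strand of the gene, with the MspI site CCGG in capitals. The windows are placed on mm9, and positions in the 2 builds cannot be compared. By the authors' distances, windows of 4930511A02Rik and 1700030C10Rik reach the start itself, while those of Atcayos, 5830416I19Rik and Hoxa11os lie mostly or wholly outside the printed stretch.
4930511A02Rik, chr12:11437983-11438282, plus strand: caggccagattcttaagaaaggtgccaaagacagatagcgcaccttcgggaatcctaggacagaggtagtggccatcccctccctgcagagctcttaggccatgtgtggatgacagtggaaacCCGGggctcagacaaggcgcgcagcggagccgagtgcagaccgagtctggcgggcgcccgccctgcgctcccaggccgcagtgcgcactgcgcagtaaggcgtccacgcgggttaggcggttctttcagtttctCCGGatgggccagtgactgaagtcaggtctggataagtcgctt
1700030C10Rik, chr12:20815730-20816029, minus strand: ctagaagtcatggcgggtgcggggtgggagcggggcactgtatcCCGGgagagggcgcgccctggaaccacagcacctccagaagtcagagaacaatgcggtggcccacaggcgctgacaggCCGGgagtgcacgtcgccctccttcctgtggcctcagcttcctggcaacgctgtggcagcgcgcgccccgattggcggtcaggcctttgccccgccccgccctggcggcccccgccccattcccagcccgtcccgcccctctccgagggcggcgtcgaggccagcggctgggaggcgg
Atcayos, chr10:81194441-81194740, plus strand: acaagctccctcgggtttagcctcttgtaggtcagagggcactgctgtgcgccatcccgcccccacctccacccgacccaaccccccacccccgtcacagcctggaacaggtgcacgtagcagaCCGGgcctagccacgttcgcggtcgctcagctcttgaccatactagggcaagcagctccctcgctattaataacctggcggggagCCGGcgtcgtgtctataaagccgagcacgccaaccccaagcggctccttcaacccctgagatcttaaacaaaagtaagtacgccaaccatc
5830416I19Rik, chr5:64044723-64045022, plus strand: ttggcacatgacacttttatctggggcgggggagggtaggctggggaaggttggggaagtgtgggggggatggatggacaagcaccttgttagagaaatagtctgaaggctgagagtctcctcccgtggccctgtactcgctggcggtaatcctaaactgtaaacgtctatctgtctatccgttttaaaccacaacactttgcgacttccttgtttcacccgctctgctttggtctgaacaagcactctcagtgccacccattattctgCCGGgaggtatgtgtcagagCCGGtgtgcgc
Hoxa11os, chr6:52244993-52245292, plus strand: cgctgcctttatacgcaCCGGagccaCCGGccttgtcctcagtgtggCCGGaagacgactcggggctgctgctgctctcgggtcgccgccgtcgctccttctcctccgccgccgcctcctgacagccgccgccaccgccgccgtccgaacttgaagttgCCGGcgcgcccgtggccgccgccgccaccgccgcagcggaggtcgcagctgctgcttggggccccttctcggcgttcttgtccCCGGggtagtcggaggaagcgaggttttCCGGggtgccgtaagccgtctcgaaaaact

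CCGG was found 2 times in each of the first 4 sequences and 6 times in that of Hoxa11os. The number of CpGs was 21, 29, 20, 11 and 41, against a median of 7 over all 32851 promoters of the table. The median was 11 in the 18 promoters of the matched noncoding genes with a promoter window, and 5 over all listed noncoding genes. Most of the printed promoters are thus richer in CpGs than their set. Of genes not printed that also had a start-site window for R-2HG minus IDH1mut, 4930525G20Rik, 4933431E20Rik and Gm14812 had 10, 11 and 8. CCGG stands in 17338 of all promoters (52.8%) and in 16 of the 18 promoters of the 16 matched noncoding genes with a promoter window (88.9%). Among listed noncoding genes without a promoter window it stands in 37 of 100 promoters. RRBS reads only fragments that begin at such sites, and whether this accounts for the difference between these shares was not tested.

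4930511A02Rik, a long noncoding RNA gene between Vsnl1 and Rad51ap2, had the largest loss among noncoding promoter windows. Its 3 windows at chromosome 12, 11444501 to 11445500 (mm9), had -48.5, -48.6 and -49.2 points for IDH1mut minus IDH1wt in the authors' deposited table. For R-2HG minus IDH1mut they had 29.2, 32.3 and 35.4 points in the authors' deposited table. IDH1mut was the lowest group in all 3 windows, and subtraction gave -19.3, -16.3 and -13.9 points for R-2HG minus IDH1wt.

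1700030C10Rik, next to Asap2 on chromosome 12, was the noncoding gene with most windows, 8 in all, and they fall into 3 places. At its start site 4 windows had -29.2, -26.9, -28.0 and -28.0 points for R-2HG minus IDH1mut in the authors' deposited table, and none was listed against IDH1wt. At -29112 and -29362 bp, 2 windows had 38.4 and 38.9 points for IDH1mut minus IDH1wt and -49.3 and -48.8 for R-2HG minus IDH1mut in the authors' deposited tables. At 111141 and 110891 bp downstream, 2 windows had -40.0 points for IDH1mut and -52.2 for R-2HG, both against IDH1wt. The gene therefore had gains and losses within IDH1mut minus IDH1wt, depending on the place.

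The same was seen at 4 other genes in the authors' deposited tables, each with places far apart. Gm833, between Nphp4 and Ajap1, had 47.2 points at 118604 bp and -36.0 and -35.8 points at 127354 and 127604 bp for IDH1mut minus IDH1wt, and -38.6 for R-2HG minus IDH1mut at the first place. Gm10445, Srrm4os and 4930480M12Rik were chosen after their values were seen. For IDH1mut minus IDH1wt Gm10445 had -42.4 and 25.3 points, Srrm4os -28.5 and 31.3 points, and 4930480M12Rik -25.4 and 38.3 points at their 2 places each in the authors' deposited table.

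Atcayos, on the strand opposite to the Atcay and Nmrk2 genes, had 42.7 points for IDH1mut minus IDH1wt and -34.0 for R-2HG minus IDH1mut in 2 overlapping windows at -436 and -186 bp, in the authors' deposited tables. 5830416I19Rik, between Rell1 and Pgm2, had 33.4 and -35.6 points at 291 bp for these comparisons, and 4930525G20Rik, which overlaps Zfp273, had 35.5 and -29.4 points at its start, in the authors' deposited tables. In all 3 genes IDH1mut was the high group and the other groups differed by under 25 points. The reverse order, with IDH1mut low, was seen at 4930511A02Rik and Mir5103. Hoxa11os, transcribed opposite Hoxa11, had losses of -27.6 and -27.1 points for IDH1mut minus IDH1wt at -492 and -242 bp, as listed in the authors' deposited table, and was in no other table. D230030E09Rik, between Sp4 and Sp8, had -42.5 points for R-2HG minus IDH1wt at -586 bp.

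**Figure D3:**
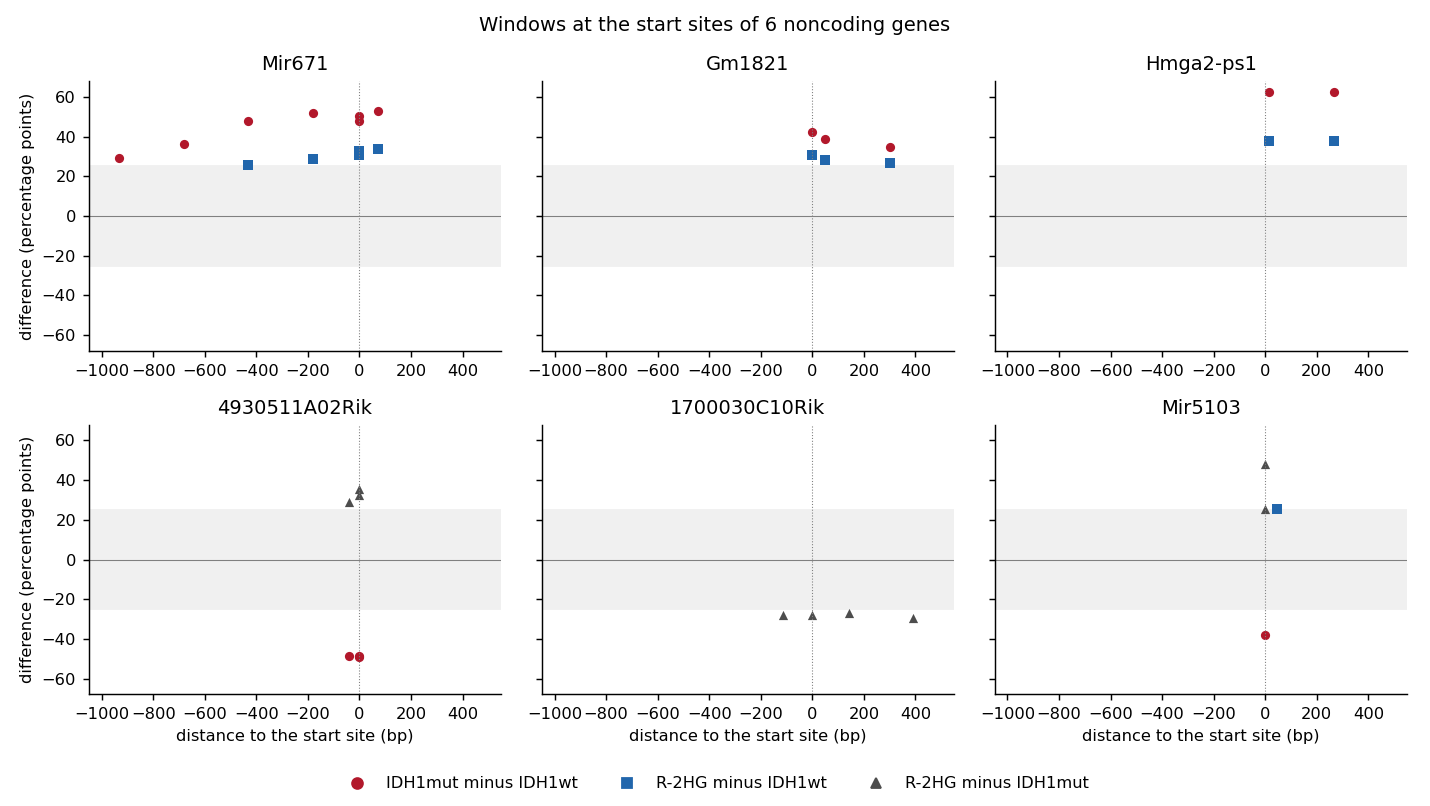
Methylation difference (vertical axis, percentage points) against the authors' distance to the start site (horizontal axis, bp) for windows of 6 noncoding genes, 1 panel per gene. Circles, squares and triangles are the 3 comparisons, and the grey band is the range below the listing threshold. Both comparisons against IDH1wt hold gains at Mir671, Gm1821 and Hmga2-ps1, and IDH1mut minus IDH1wt is a loss at 4930511A02Rik and Mir5103.

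Pseudogenes gave the largest noncoding gain. Hmga2-ps1, a copy of the chromatin protein gene Hmga2 that is itself placed within Sdccag8, had 62.6 points for IDH1mut minus IDH1wt and 37.9 for R-2HG minus IDH1wt in the authors' deposited tables, with equal values in 2 overlapping windows (chromosome 1, 178765501 to 178766250, mm9). Gm1821, named Ubb-ps in RefSeq as a copy of a ubiquitin gene, had 42.5, 38.6 and 34.6 points for IDH1mut and 30.9, 28.3 and 26.6 for R-2HG, both against IDH1wt, at 0, 51 and 301 bp, as listed in the authors' deposited tables. Its other 2 windows, at -45952 and -46202 bp, had 27.6 points for R-2HG minus IDH1wt alone. H2afy3, a macroH2A copy between Myc and Gsdmc, had 39.6 and 32.5 points at its start in the authors' deposited tables. In these 3 genes IDH1mut had the larger gain. Gm6815 ran the other way, with -32.3 points for R-2HG minus IDH1wt and -26.3 for R-2HG minus IDH1mut at -1030 bp. Mospd4, also typed as a transcribed pseudogene and chosen after its values were seen, had losses at its start. Its 3 windows from 0 to 221 bp had -32.8 to -29.5 points for IDH1mut minus IDH1wt in the authors' deposited table. How the alignment treated reads that match both a copy and its parent gene is not given in the sources used here, so values at pseudogenes are uncertain in their place.

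By name, 11 of 12 pseudogene windows of IDH1mut minus IDH1wt were gains, as were 5 of 5 windows of small nucleolar RNAs and 8 of 14 of antisense or opposite-strand transcripts, in the authors' deposited table. The share over all listed windows was 69.3%. The pseudogene count covers only the 7 genes with -ps in the symbol. Of the other genes typed as pseudogenes in RefSeq, most of those listed in this comparison had gains, while Mospd4, Gm4971, Gm8709 and A930017M01Rik had losses. Of the small nucleolar RNAs, which guide modification of other RNAs, Snord43 in the ribosomal protein gene Rpl3 had 29.6 points in 2 windows at 87 and 337 bp. Snord116l1, of a cluster with many copies near Snrpn, had 37.4 points in 2 windows listed in 10 rows each, 175450 and 175700 bp from the start, in the authors' deposited table. Both were chosen after their values were seen. Snord116l1 sits in an imprinted region but is not in the list of imprinted genes used further on.

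Most noncoding windows, however, lay away from start sites. The median absolute distance was 31738 bp, against 16872 bp for coding windows, and 135 of 339 (39.8%) lay beyond 50 kb, against 26.9% of coding windows. How densely noncoding and coding start sites lie in the genome was not taken into account. For IDH1mut minus IDH1wt the median gain was 32.6 points in noncoding promoter windows and 31.2 points beyond 50 kb in the authors' deposited table. 4930401O10Rik, between Wscd1 and Aipl1, had -56.0 points for IDH1mut minus IDH1wt and 51.9 for R-2HG minus IDH1mut in 2 overlapping windows at -27128 and -27378 bp, in the authors' deposited tables. These are the largest noncoding loss of the first comparison and the largest noncoding gain of the other. 6430562O15Rik, which overlaps Mrps27, had -44.9, -42.7 and -38.9 points for IDH1mut minus IDH1wt and 35.2, 33.9 and 31.8 for R-2HG minus IDH1mut in 3 windows from -8471 to -8971 bp, in the authors' deposited tables.

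Gm12718, between Oma1 and Dab1, had 36.6, 33.8, 35.6 and 55.1 points for IDH1mut and 30.8, 29.2, 29.6 and 43.7 for R-2HG, both against IDH1wt, 180398 to 181398 bp downstream of its start in the authors' deposited tables. The fourth window was the high one in both. 9330111N05Rik had 54.1 and 40.0 points at 100668 bp, and 4930556G01Rik 50.5 and 45.3 points at -428746 bp, each listed in the authors' deposited tables. 2410018L13Rik had 46.1 and 47.5 points for IDH1mut and 42.0 and 43.5 for R-2HG, at -147947 and -147697 bp, as listed in the authors' deposited tables. At these loci both groups had more methylation than IDH1wt. On the X chromosome 4933407K13Rik had 27.2, 35.7 and 38.9 points for IDH1mut and 26.3, 35.2 and 36.0 for R-2HG in 3 overlapping windows from 91039 to 90539 bp of its start, in the authors' deposited tables. 4930553E22Rik, between Ncam2 and Mrpl39, had 4 windows at about the same level, 28.9 to 31.6 points for IDH1mut, in 2 places from -967388 to -1295638 bp. Only the nearer place was listed for R-2HG minus IDH1wt too, where the authors' deposited table gave 28.6 and 30.3 points.

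R-2HG stood apart from both other groups at 1600010M07Rik. This gene, between Tmem41b and Ipo7, had 43.5, 47.7 and 50.2 points for R-2HG minus IDH1wt and 36.9, 39.4 and 40.8 for R-2HG minus IDH1mut, from 3411 to 2911 bp downstream of its start, in the authors' deposited tables. R-2HG was the high group in all 3 windows, and 50.2 is the largest noncoding gain of its comparison. A330009N23Rik, which overlaps Grasp, had the largest noncoding loss of R-2HG minus IDH1wt, -55.7 points at -5385 bp, as listed in the authors' deposited table. 9130221H12Rik, which overlaps Gsk3a, had -36.7 and -45.7 points for R-2HG minus IDH1mut alone, in the authors' deposited table. 4933433H22Rik, between Haao and Zfp36l2, had 38.5, 37.3 and 36.6 points for R-2HG minus IDH1wt alone, and 1700034H15Rik had -36.9 points in that comparison, in the authors' deposited table. IDH1mut was the group apart at 1700048O20Rik, with 32.9 and 34.2 points for IDH1mut minus IDH1wt and -40.1 and -39.1 for R-2HG minus IDH1mut in the authors' deposited tables. Gm8179, which overlaps Nrg1, had 29.7 and 27.4 points for IDH1mut minus IDH1wt and -31.4, -31.4 and -31.0 for R-2HG minus IDH1mut from -30867 to -30367 bp of its start, in the authors' deposited tables.

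**Figure D4:**
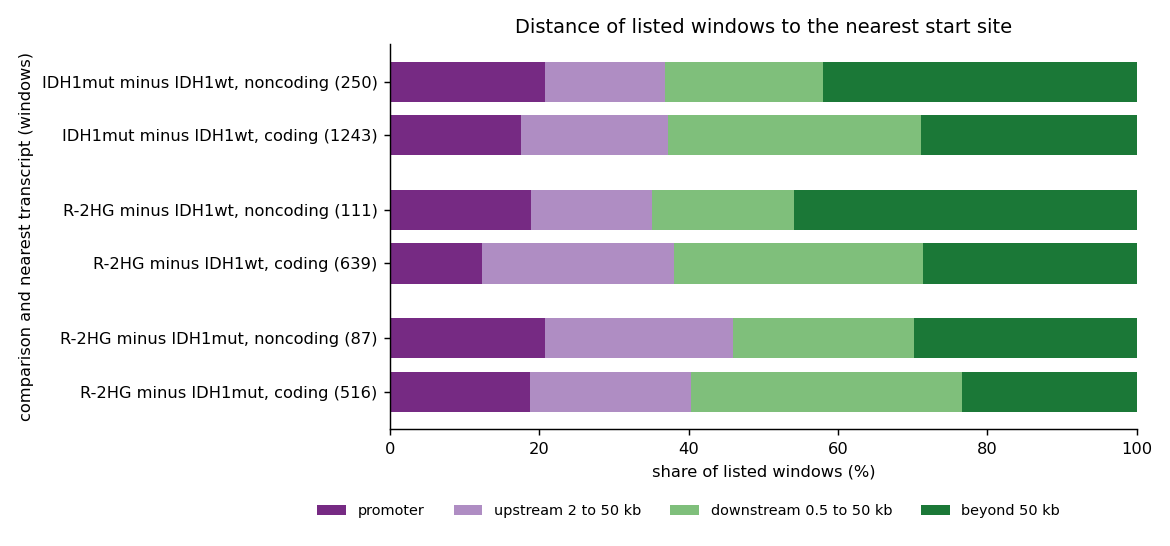
Share of listed windows (horizontal axis, percent) by the authors' distance to the nearest start site, for noncoding and coding windows of each comparison (vertical axis, with the number of windows). Promoter means from -2000 to 500 bp. Windows beyond 50 kb take 42.0%, 45.9% and 29.9% of noncoding windows, against 28.9%, 28.6% and 23.4% of coding ones.

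Of the 339 noncoding windows, 230 were listed in 1 table, 109 in 2 tables and none in all 3. IDH1mut minus IDH1wt alone held 150, R-2HG minus IDH1wt alone 42 and R-2HG minus IDH1mut alone 38. Both comparisons against IDH1wt listed 60 windows, with absolute differences of 25.2 to 62.6 points for IDH1mut and 25.7 to 52.2 points for R-2HG in the authors' deposited tables. These comparisons share the IDH1wt libraries. By subtraction R-2HG minus IDH1mut ran from -24.6 to 5.48 points in the 60 windows, with a median of -4.87. For the 40 windows listed for IDH1mut minus IDH1wt and R-2HG minus IDH1mut, which share the IDH1mut libraries, subtraction gave -19.3 to 10.4 points for R-2HG minus IDH1wt (median -1.96). The last 9 windows, listed for both R-2HG comparisons, had -9.00 to 9.76 points for IDH1mut minus IDH1wt (median 6.60). All subtracted values are under 25 points in size by the way windows were listed.

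**Figure D5:**
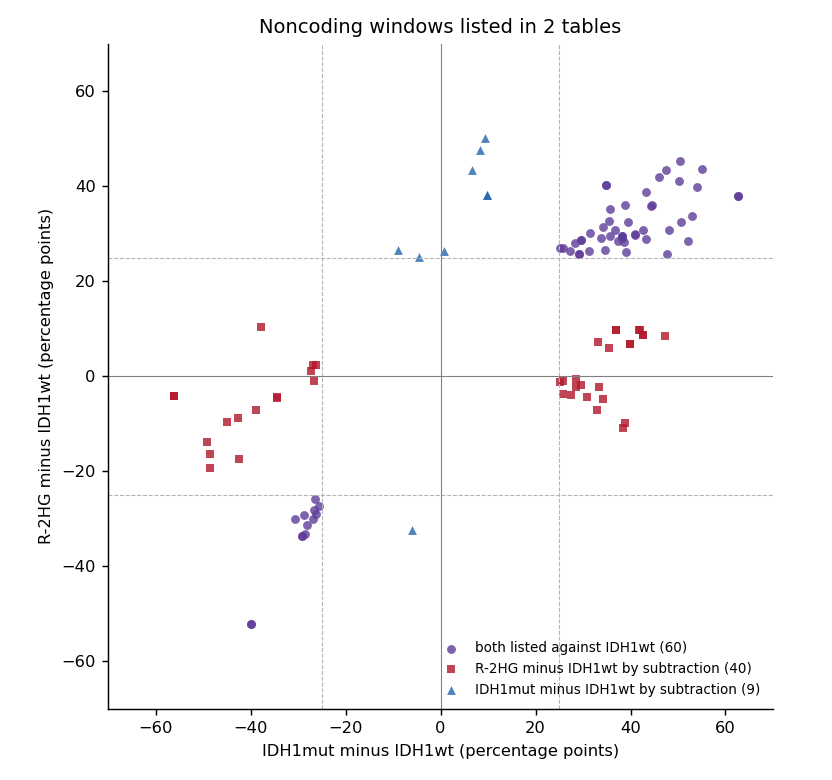
Difference of R-2HG minus IDH1wt (vertical axis) against IDH1mut minus IDH1wt (horizontal axis), in percentage points, for the 109 noncoding windows listed in 2 tables. Circles have both values listed, squares and triangles have 1 value by subtraction, dashed lines mark 25 points, and the axes share the IDH1wt libraries. The 60 circles have both values past 25 points in size, and the 40 squares lie between -19.3 and 10.4 points on the vertical axis.

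Lists of noncoding genes with a known role had few members among the listed genes. The tables hold only windows past the threshold and cannot show whether the others were measured. Some genes stand in the lists under both an older and a newer name, so the list sizes count names. Of 25 imprinted noncoding genes 0 were the nearest gene of a listed window, and of 24 noncoding genes of the Hox clusters 2 were, Hoxa11os and Mir196a-1. Of 50 microRNAs of blood cells and leukaemia, 1 was listed, Mirlet7c-2, and of 30 microRNAs often methylated in cancer, 1, Mir152. Among all 1005 mouse microRNA genes with a RefSeq hairpin, 17 were listed, so these low counts are not particular to the 2 microRNA lists. No such share over all genes was available for the other lists. Of 44 long noncoding RNAs and RNA host genes 3 were listed under the same symbol. Pantr1, another of the 44, was missed by this match because it is listed under its older symbol, 2610017I09Rik. It had -32.4 points for IDH1mut minus IDH1wt at 154921 bp in the authors' deposited table. Six3os1 had 31.8 points and Otx2os1 -34.4 points in 2 windows for IDH1mut minus IDH1wt, at 152737 bp and from 38540 bp, in the authors' deposited table. Six3os1 overlaps Six3 and Otx2os1 lies next to Otx2 without overlapping it, both homeobox genes of the developing head. Fendrr, a mesoderm RNA between Irf8 and Foxf1, had 36.2 points in 2 windows for R-2HG minus IDH1wt, 83433 and 83683 bp downstream of its start, in the authors' deposited table.

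Overlap between windows sets how far these counts can be read. Of pairs of listed noncoding windows that start 250 bp apart, 36 of 94, 11 of 40 and 12 of 35 had equal differences (within 1e-09 points) in the authors' deposited tables, in the order of comparisons used above. Such pairs may rest on the same CpGs. Counting each run of equal neighbours once leaves 214, 100 and 75 windows. All pairs of neighbours went the same way. By chromosome, 40 noncoding windows (11.8%) lay on chromosome 5, against 6.90% of coding ones, and 7 of the 40 were those of Mir671. The noncoding share was also higher on chromosome 12 (8.85% against 3.79%) and chromosome 14 (7.37% against 3.67%). On others it was lower, such as chromosome 4 (5.01% against 9.24%).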

How the data were processed

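Methylation was measured by RRBS in 6 mouse libraries (IDH1wt, IDH1mut and R-2HG, 2 each). Per the submitters' processing notes, Trim Galore, BSMAP, methylKit 0.9.1 and mm9 were used. How these were set, the minimum coverage and the statistical test used: not given in the sources used here. Columns of the deposited tables are, per the file headers, the position of the window, its difference, its p-value and q-value, and the transcript, symbol and distance of the closest start site. The authors computed the difference between 2 groups as a score with a sign, in percentage points. No value per library was used, so there is no own test, SD or interval, and read depth is unknown. Separate mice per library are not stated in the labels, and the authors' p-values may cover technical spread only.

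Windows with repeated rows entered once (64, 4 and 1 rows dropped). Of the possible sign orders of the 3 tables, 1 made the differences add up exactly (to 0) at the 3 windows shared by all tables, and no window (0 of 705) shared by 2 tables then had a remaining difference of 25 points or more. With other orders 320, 457 and 633 windows had one. Signs of the comparison between IDH1wt and R-2HG were therefore turned round. Classes came from the gene symbol, positions from the authors' distance, and groups of windows from gaps up to 1000 bp. All 192 genes were matched to RefSeq (GRCm38.p6), 191 by accession, for names, types and neighbours only. Mature microRNAs and promoters (113 of 192 genes matched) came from RefSeq.

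The members and lists were chosen with earlier results of these data known. Named genes were, per comparison, the 8 with most windows, those of the 5 largest gains and losses, and every microRNA gene in 2 or more tables. Up to 15 further microRNA genes, all members of the 5 gene lists that were listed under the same symbol, and genes with a promoter window in 2 or more tables were added. This gave 50 genes. Joining and sign order were tested on simulated data, and the classes were not. Python 3.11.15, pandas 2.3.3 and matplotlib 3.10.9 were used. Alternatives tried were distance, difference and q limits, other promoter bounds, joining of windows and the transcript choice.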

Additional observations from a re-analysis of the deposited data

How the results depend on the processing

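No value per library was used, so no run without 1 library could be made. No paired analysis was possible because the deposited tables hold differences between groups and no column per replicate. Limiting the distance to 50000 bp of the start site left 145 noncoding windows for IDH1mut minus IDH1wt, 60 for R-2HG minus IDH1wt and 61 for R-2HG minus IDH1mut, with a noncoding share of 14.1%, 11.6% and 13.4% of listed windows and gains in 70.3%, 81.7% and 52.5%. Within 5000 bp, 67 noncoding windows were left for IDH1mut and 30 for R-2HG, both against IDH1wt, and 28 for R-2HG against IDH1mut. A difference of at least 30 points left 128, 51 and 39 in that order. All of these alternatives keep fewer windows by construction. With at least 30 points, gains made up 71.9%, 76.5% and 46.2%, in the same order. Joining of windows, the transcript choice and the q limit gave shares of gains from 69.7% to 70.7%, from 70% to 74.0% and of 47.1%. After seeing the data, the share of gains was also computed without the X chromosome (70.3%, 72.6% and 45.2%) and without genes typed as protein coding in RefSeq (70.2%, 73.9% and 47.7%). Depth is unknown, so a window absent from a table cannot be read as unchanged.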

Other observations

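Some start-site windows were listed in 1 table only and belong to genes chosen here after their values were seen. For IDH1mut minus IDH1wt, Gm5069, a pseudogene within the kinase gene Itpkb, had 39.5, 34.1 and 26.2 points in 3 windows from -1322 to -1822 bp in the authors' deposited table. Gm9895, between Ak3 and Rcl1, had 31.8 and 32.7 points over its start in the authors' deposited table. The pseudogenes Zfa-ps and Npm3-ps1 had 26.5 to 28.1 points at theirs.

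Losses at start sites in that comparison included genes of the X chromosome, while Gm41, also on X, had gains. Its 2 windows at -169 and -419 bp had 25.2 points each in the authors' deposited table. 2010204K13Rik, between Usp27x and Ppp1r3f, had -34.0 and -37.6 points, and G530011O06Rik -41.7 points at -403 bp, both listed in the authors' deposited table. RefSeq holds a G530011O06Rik promoter on both X and Y, so its place is uncertain. For R-2HG minus IDH1wt, 5930430L01Rik, between Katnal1 and Hmgb1, had 31.1 and 25.4 points at its start in the authors' deposited table. Away from start sites, Bcas1os2 had 39.6 points in 2 windows for IDH1mut minus IDH1wt at -89361 and -89611 bp, as listed in the authors' deposited table.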
